A study of Mus musculus with 6 samples.

Results

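Reactive astrocyte and acute-phase genes were examined in the dorsal striatum of C57BL/6 mice aged 1 year. The list holds 34 genes, chosen by gene symbol with earlier results of these data known. All 34 were found among the 34745 genes of the deposited table, and 28 of them passed the low-count filter along with 15267 genes in all. RNA was sequenced from 3 samples heterozygous for Ash1l (Ash1l het), a histone H3 lysine 36 methyltransferase gene, and from 3 wild type (WT) samples. The labels give neither the Ash1l allele nor the site of its mutation, and whether every sample comes from its own mouse is not stated. The spread behind each p-value is therefore that of these 6 samples and may be technical.

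Astrocytes answer injury, infection and cytokines by a change of state known as reactivity. They raise the intermediate filament GFAP and, depending on the trigger, sets of secreted proteins, receptors and enzymes. Many of these genes, in the brain as in the liver during the systemic acute-phase response, lie downstream of the interleukin-6 family of cytokines, the transcription factor STAT3 and C/EBP factors. Mouse studies have described a pan-reactive set, a set linked to endotoxin and a set linked to ischaemia, and 29 of the 34 genes belong to these. Endothelial cells, microglia and blood cells also make several of them, and in bulk tissue a change in the number of such cells and a change in RNA per cell cannot be told apart.

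Library totals ran from 14421259 to 18798694 counts in Ash1l het and from 12080663 to 17381781 counts in WT. The level of Ash1l itself was 281, 198 and 253 CPM in Ash1l het, against 308, 295 and 293 CPM in WT. CPM here are counts scaled to library size with TMM factors, and replicates 1, 2 and 3 are given in that order throughout. The protocol text describes male mice, but Xist lay between 1956 and 2957 CPM in all 6 libraries, and 4 Y-linked genes together had 1 count in WT replicate 1 and 0 counts elsewhere. On the first principal component of all tested genes, with 27.9% of the variance, Ash1l het replicates 1 and 2 lay at -28.1 and -28.5, and the other 4 libraries between 4.18 and 23.8. Summed striatal neuron markers ran from 7234 to 8909 CPM in Ash1l het and from 7635 to 8803 CPM in WT.

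No member passed the quasi-likelihood test of edgeR at an adjusted p under 0.05 over all genes, where 2 of the 15267 genes passed, both higher in Ash1l het (0.0131%). The smallest adjusted p among the members was 0.299, for Lrg1. By value, 25 of the 28 tested members were higher in Ash1l het and 3 lower, while 51.4% of all tested genes were higher. The median log2 fold change of Ash1l het over WT was 0.66 over the 28 members and 0.01 over all tested genes. Unadjusted, 8 members had an edgeR p under 0.05, all 8 higher in Ash1l het, against 3.1% of all tested genes in that direction, 2.67% in the other and 5.78% in both. DESeq2 passed 4 members, Lrg1, Lcn2, Vim and Cp, as higher in Ash1l het, where it passed 0.128% of genes as higher. Without Ash1l het replicate 2 the median over the members was 0.27, and without Ash1l het replicate 3 it was 0.96.

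The members showed 2 patterns, which are related by definition. In 7 of 28, all Ash1l het values exceeded all WT values (6.18% of all tested genes did so), and in 0 of 28 all Ash1l het values were under all WT values (5.53% of all tested genes). These 7, which followed genotype, were Vim, Lcn2, Lrg1, Hp, Cp, Serpina3n and Emp1. Lrg1 and Hp had under 10 counts in each WT library and passed the low-count filter through Ash1l het alone. Lcn2, with 16, 6 and 6 counts in WT, would not have passed the filter on WT alone. The lack of overlap in Lrg1, Hp and Lcn2 is therefore no support of its own. Gfap instead had WT replicate 1 above Ash1l het replicate 3, and its libraries ran, from high to low, Ash1l het 2, Ash1l het 1, WT 1, Ash1l het 3, WT 3 and WT 2. Likeness to this order was counted as the number of the 15 pairs of libraries that a gene placed in the same order as Gfap. Between groups, Gfap had Ash1l het above WT in 8 of 9 pairs, so the Gfap order is close to the order by genotype. A gene without overlap cannot match all 15 pairs, as it must differ from Gfap in the remaining pair. At least 13 of 15 pairs matched in 7 of the other 27 tested members (5.23% of all tested genes), namely Serpina3n and Aspg with 14, and Cd109, Tm4sf1, Ggta1, Gbp2 and Srgn with 13. Serpina3n alone of the members was in both sets (1.22% of all tested genes were). Without Ash1l het replicate 2, 3 members met the same share of pairs (6.54% of all genes then tested), and without Ash1l het replicate 3, 10 did (7.29%). All 15 pairs matched in 0 of the 27, against 0.341% of all tested genes.

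**Figure D1:**
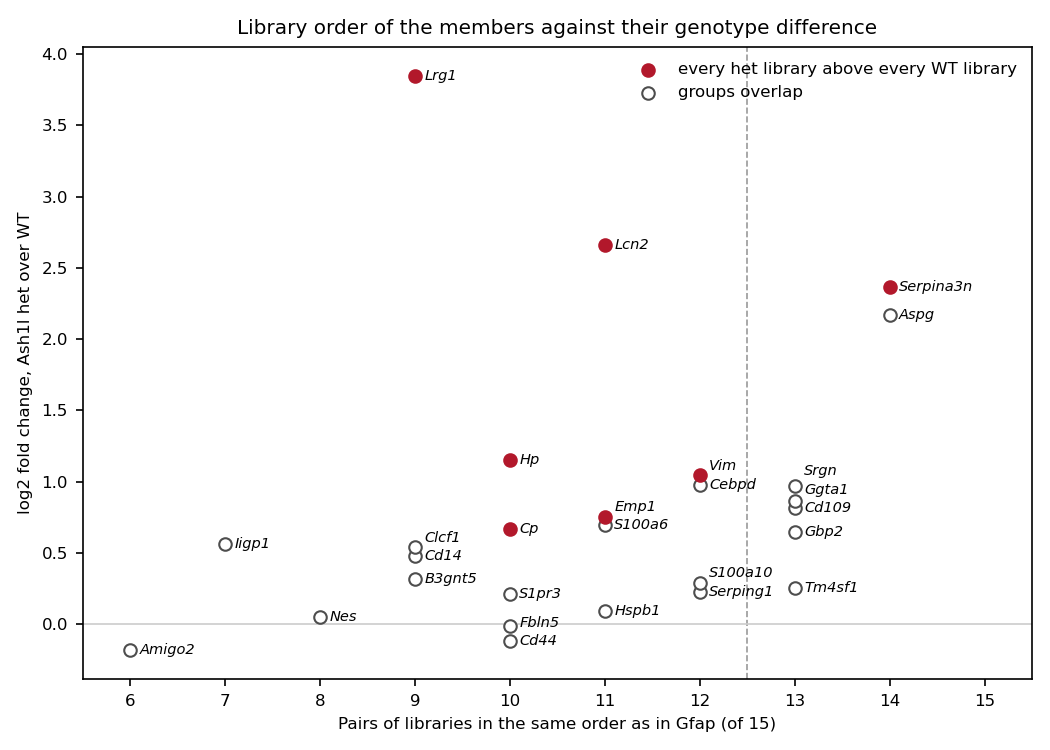
Each point is 1 of the 27 tested members other than Gfap, placed by how many of the 15 pairs of libraries it had in the Gfap order (horizontal) and by its log2 fold change of Ash1l het over WT (vertical). Filled points are the 7 members whose groups did not overlap, of which Serpina3n alone lies right of the dashed line, where at least 13 pairs match.

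Promoter sequences are shown for 4 members: Gfap, which sets the order, Serpina3n, which was in both sets, and Emp1 and Ggta1, the other tested members whose window held a searched motif, both chosen after that was seen. The windows run from 250 bases before to 50 bases after the RefSeq gene start (GRCm38.p6) and are printed 5′ to 3′ on the gene's strand, with motif matches in capitals. The motifs were TTCNNNGAA, a STAT site, and TTGCGCAA or TTGCACAA, which are C/EBP sites, on both strands.
Gfap, chr11:102897151-102897450, minus strand: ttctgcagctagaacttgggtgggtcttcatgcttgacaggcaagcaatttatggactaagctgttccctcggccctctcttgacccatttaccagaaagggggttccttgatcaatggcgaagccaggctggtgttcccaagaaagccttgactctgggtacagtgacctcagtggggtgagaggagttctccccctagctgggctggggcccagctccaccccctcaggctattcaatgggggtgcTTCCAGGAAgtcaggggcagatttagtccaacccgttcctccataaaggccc
Serpina3n, chr12:104406458-104406757, plus strand: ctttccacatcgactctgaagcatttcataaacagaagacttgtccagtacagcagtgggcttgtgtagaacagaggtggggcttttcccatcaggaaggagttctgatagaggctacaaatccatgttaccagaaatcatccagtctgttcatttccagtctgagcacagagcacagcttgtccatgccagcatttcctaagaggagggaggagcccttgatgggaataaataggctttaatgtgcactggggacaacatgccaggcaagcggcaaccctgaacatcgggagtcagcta
Emp1, chr6:135362681-135362980, plus strand: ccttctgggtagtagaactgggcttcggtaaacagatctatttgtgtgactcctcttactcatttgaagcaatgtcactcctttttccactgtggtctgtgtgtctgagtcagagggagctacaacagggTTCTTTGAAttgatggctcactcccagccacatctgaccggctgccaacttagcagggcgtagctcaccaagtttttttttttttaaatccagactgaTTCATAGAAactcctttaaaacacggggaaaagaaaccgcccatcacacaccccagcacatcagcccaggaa
Ggta1, chr2:35461400-35461699, minus strand: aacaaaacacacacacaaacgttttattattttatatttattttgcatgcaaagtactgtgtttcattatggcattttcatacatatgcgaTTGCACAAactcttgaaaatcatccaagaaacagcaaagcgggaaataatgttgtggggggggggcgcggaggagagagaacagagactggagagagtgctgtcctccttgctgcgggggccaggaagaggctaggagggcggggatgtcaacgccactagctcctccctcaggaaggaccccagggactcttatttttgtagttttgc
The Gfap window held 1 STAT match, whose first base is at -2 from the RefSeq gene start. Emp1 held 2 STAT matches, at -120 and -22, and Ggta1 held 1 C/EBP match at -159. These 3 windows lie inside the deposited genes, which start further upstream, at 102900912 for Gfap, 135362545 for Emp1 and 35463231 for Ggta1. Serpina3n held no match to these letters in this window. Of the 26 members with a window, 4 held a STAT match (15.4%), the others being Steap4 and Tgm1, against 8.47% of 27025 promoters, and 2 held a C/EBP match (7.69%), Ggta1 and Ptx3, against 1.19%. A match is a description of the letters and not a binding site.

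Among the intermediate filament genes, Gfap and Vim were higher in Ash1l het by value and Nes was close to WT. Gfap (ENSMUSG00000020932, GRCm38 chromosome 11, 102887336 to 102900912, minus strand), the main filament of astrocytes, stood at 412, 733 and 104 CPM in Ash1l het, against 154, 62.1 and 83.7 CPM in WT. Ash1l het replicates 1 and 2 were the high libraries, replicate 3 lay within the WT range, and the groups overlapped. The log2 fold change was 2.06 (SE 0.81), with an edgeR p of 0.0516 unadjusted and 0.858 adjusted, and the exact permutation p (two-sided) was 0.2, where 3 against 3 cannot go below 0.1. Without Ash1l het replicate 2 the Gfap fold change was 1.37 on the log2 scale. The 7 members whose groups did not overlap had that smallest exact permutation p of 0.1. Per length Gfap was the most abundant member, at 91.2 ± 71.8 FPKM in Ash1l het and 20.9 ± 10.3 FPKM in WT (SD, n = 3 each).

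Vim (ENSMUSG00000026728, chromosome 2, 13573927 to 13582826, plus strand) encodes vimentin, a filament of reactive astrocytes that endothelial and other cells also make. It was at 27.9, 44.2 and 25.8 CPM in Ash1l het, against 16.9, 18.2 and 12.3 CPM in WT. The groups did not overlap, and Ash1l het replicate 3 was close to replicate 1. For Vim the log2 fold change was 1.05 (SE 0.23), with an edgeR p of 0.00173 unadjusted and 0.690 adjusted. DESeq2 gave an adjusted p of 0.0147. Without Ash1l het replicate 2 it was 0.77 on the log2 scale, the lowest value with any library left out. Vim had 12 of 15 pairs in the Gfap order, 1 short of the 13 used here. Nes, which encodes nestin, a filament of neural progenitors, ran from 11.3 to 17.7 CPM in Ash1l het and from 12.6 to 16.4 CPM in WT, with a log2 fold change of 0.05 (SE 0.19).

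Secreted acute-phase proteins and protease inhibitors held most of the members that followed genotype. Of the 6 tested, 5 did so, against 6.18% of all tested genes, and 0 passed the edgeR test over all genes. Among these 5, Lrg1 and Hp passed the low-count filter through Ash1l het alone, and Lcn2 would not have passed it on WT alone. Serpina3n (ENSMUSG00000021091, chromosome 12, 104406729 to 104414329, plus strand), a serine protease inhibitor used as a marker of reactive astrocytes, was at 37.9, 66.7 and 13.7 CPM in Ash1l het, against 9.85, 5.74 and 7.53 CPM in WT. The groups did not overlap, but Ash1l het replicate 3 was nearer to WT replicate 1 than to the other Ash1l het libraries. Its log2 fold change was 2.36 (SE 0.61), with an edgeR p of 0.00973 unadjusted and 0.816 adjusted. On the log2 scale it was 1.75 without Ash1l het replicate 2, and 2.77 without Ash1l het replicate 3, where edgeR gave an adjusted p of 0.0610. Serpina3n belongs to a cluster of related genes, and reads that such copies share may have been split in the counting.

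Lcn2, Lrg1 and Cp had their highest level in Ash1l het replicate 3, the Ash1l het library with the lowest Gfap. Lcn2, which encodes the iron-siderophore binding protein lipocalin 2, was at 2.92, 3.32 and 5.83 CPM in Ash1l het, against 1.32, 0.359 and 0.347 CPM in WT. Lcn2 had a log2 fold change of 2.66 (SE 0.52), with an edgeR p of 0.000691 unadjusted and 0.620 adjusted, and DESeq2 gave an adjusted p of 0.00213. Every Ash1l het library was above WT replicate 1, the highest WT library, and without WT replicate 1 the fold change of Lcn2 was 3.49 on the log2 scale, with an edgeR adjusted p of 0.106.

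Lrg1 (ENSMUSG00000037095, chromosome 17, 56119680 to 56121946, minus strand), a leucine-rich acute-phase glycoprotein, had the largest fold change of the tested members on few reads, with 32, 28 and 84 counts in Ash1l het and 1, 7 and 1 counts in WT. These are 2.18, 1.82 and 4.62 CPM in Ash1l het, against 0.0828, 0.418 and 0.0579 CPM in WT. Its log2 fold change was 3.85 (SE 0.66), with an edgeR p of 0.000235 unadjusted and 0.299 adjusted, and DESeq2 gave an adjusted p of 0.000333. The nearest libraries of the groups were Ash1l het replicate 2 and WT replicate 2. With single libraries left out, the log2 fold change ran from 3.31 to 5.24, the upper end without WT replicate 2.

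Cp (ENSMUSG00000003617, chromosome 3, 19957054 to 20009145, plus strand) encodes ceruloplasmin, a copper-carrying ferroxidase that astrocytes make. It had the tightest groups of the 7, at 23.7, 21.3 and 24.6 CPM in Ash1l het, against 14.7, 14.5 and 14.7 CPM in WT. Its log2 fold change was 0.67 (SE 0.12), with an edgeR p of 0.000337 unadjusted and 0.396 adjusted, and DESeq2 gave an adjusted p of 0.0254. The order within Cp had 10 of 15 pairs in common with Gfap. Hps3, on the other strand over the same stretch, ran from 12.2 to 14.4 CPM in Ash1l het and from 8.86 to 11.3 CPM in WT. The sources used here do not say whether counting was strand-specific, and the part of Hps3 in the Cp counts was not tested.

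Hp, which encodes the haemoglobin-binding protein haptoglobin, was near the limit of detection, with 12, 11 and 12 counts in Ash1l het and 3, 7 and 5 counts in WT. At 0.816, 0.717 and 0.660 CPM, every Ash1l het library lay above the WT libraries, at 0.248, 0.418 and 0.289 CPM. Its log2 fold change was 1.15 (SE 0.45), with an edgeR p of 0.0298 unadjusted and 0.857 adjusted. Serping1, the inhibitor of complement C1 proteases, overlapped, from 2.97 to 6.38 CPM in Ash1l het and from 3.11 to 4.40 CPM in WT, a log2 fold change of 0.23 (SE 0.30). Timp1, a metalloproteinase inhibitor, and Ptx3, a long pentraxin, did not pass the filter. Timp1 had 3, 14 and 0 counts in Ash1l het and 5, 0 and 0 counts in WT, and it lies within the neuronal gene Syn1 on the other strand. Ptx3 had 2, 4 and 0 counts in Ash1l het and 0 counts in each WT library.

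**Figure D2:**
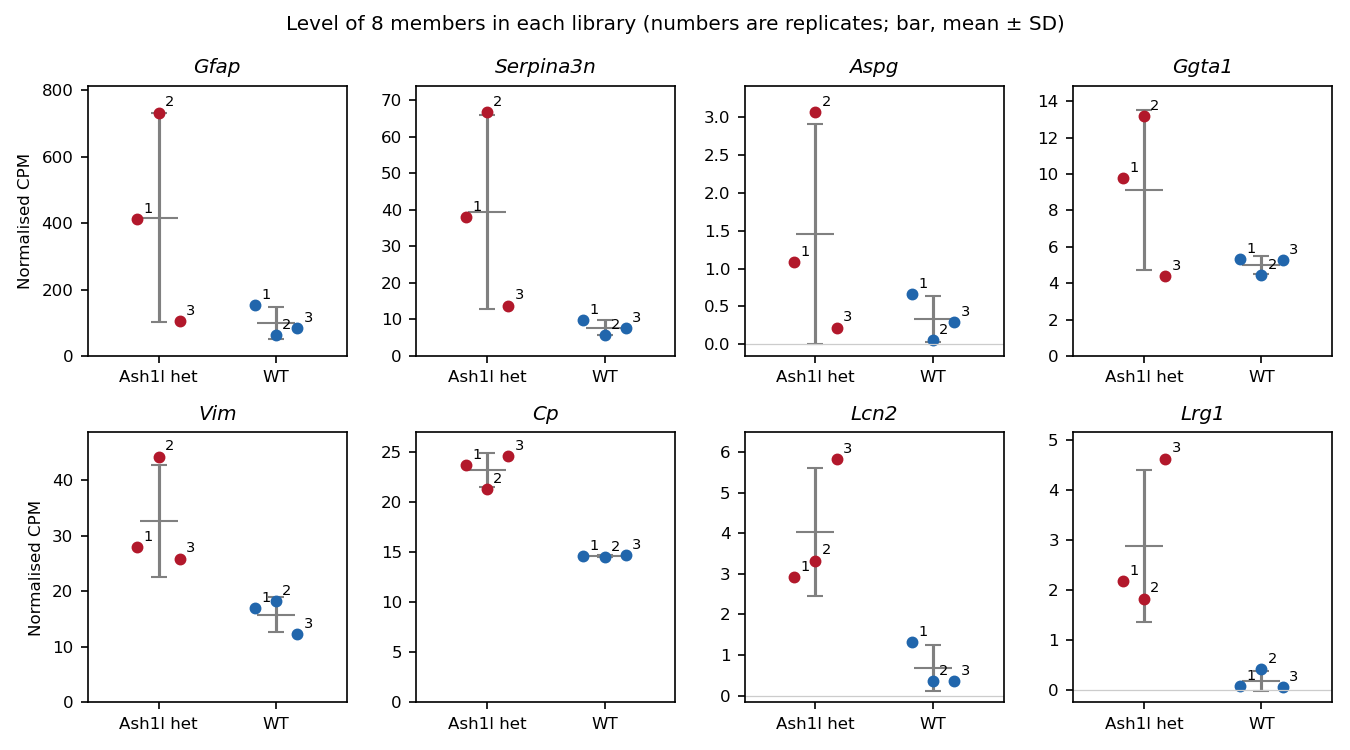
Normalised CPM of 8 members in each library, with Ash1l het left of WT, replicate numbers beside the points, and bars at the mean ± SD (n = 3 each). Gfap, Serpina3n, Aspg, Ggta1 and Vim have Ash1l het replicates 1 and 2 highest. Serpina3n, Vim, Cp, Lcn2 and Lrg1 have all 3 Ash1l het libraries above WT.

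Receptors and other membrane proteins differed little by value, with a median log2 fold change of 0.25 over the 7 tested of 9. Emp1, a tetraspan membrane protein, was the single one of them that followed genotype, at 4.15, 2.80 and 2.14 CPM in Ash1l het, against 1.49, 1.85 and 1.97 CPM in WT. Ash1l het replicate 3 lay just above WT replicate 3. The log2 fold change was 0.76 (SE 0.31), with an edgeR p of 0.0390 unadjusted and 0.857 adjusted; without Ash1l het replicate 1 it was 0.47. Cd109, a GPI-anchored protein that binds TGF-beta, was at 6.12, 6.65 and 2.36 CPM in Ash1l het, against 4.39, 2.75 and 1.56 CPM in WT. This is 0.81 on the log2 scale (SE 0.47), with an edgeR p of 0.122 unadjusted and 0.887 adjusted. It ran from 0.50 without WT replicate 3 to 1.21 without WT replicate 1. Tm4sf1, a tetraspanin-like protein abundant in endothelium, was at 7.61, 8.99 and 5.17 CPM in Ash1l het, against 8.03, 4.12 and 6.20 CPM in WT. Its log2 difference of 0.25 (SE 0.28) had an edgeR p of 0.397 unadjusted and 0.924 adjusted, and was 0.03 without WT replicate 2. Cd109 and Tm4sf1 overlapped between groups and had WT replicate 1 above Ash1l het replicate 3, as Gfap did.

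The other membrane proteins overlapped between groups. S1pr3, a receptor for sphingosine 1-phosphate, ran from 5.66 to 6.05 CPM in Ash1l het and from 4.57 to 5.86 CPM in WT. Cd14, the lipopolysaccharide co-receptor, was at 2.04, 5.47 and 1.81 CPM in Ash1l het and between 2.08 and 2.32 CPM in WT, so that Ash1l het replicate 2 alone stood out. Cd44, the hyaluronan receptor, and Amigo2, an adhesion molecule, were slightly lower in Ash1l het by value, with a log2 fold change of -0.12 (SE 0.27) for Cd44 and of -0.18 (SE 0.20) for Amigo2. Steap4, a metalloreductase, had 6, 2 and 6 counts in Ash1l het and 0, 1 and 4 counts in WT, and the bile acid transporter family gene Slc10a6 had 1 count in all, in Ash1l het replicate 2.

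Of the enzymes, Aspg and Ggta1 followed the Gfap order without following genotype. Aspg, an asparaginase listed among pan-reactive genes, had 16, 47 and 4 counts in Ash1l het and 8, 1 and 5 counts in WT, which is 1.09, 3.06 and 0.220 CPM in Ash1l het, against 0.662, 0.0598 and 0.289 CPM in WT. Ash1l het replicate 3 lay below WT replicates 1 and 3. Its log2 fold change was 2.17 (SE 1.02), with an edgeR p of 0.0673 unadjusted and 0.864 adjusted, and it was 0.99 without Ash1l het replicate 2. Leaving out WT replicate 1 gave 2.97. Ggta1, which makes the alpha-gal epitope, was at 9.79, 13.2 and 4.40 CPM in Ash1l het, against 5.30, 4.42 and 5.27 CPM in WT. Ash1l het replicate 3 was the lowest of all 6 libraries for Ggta1. The log2 fold change of Ggta1 was 0.86 (SE 0.36), with an edgeR p of 0.0425 unadjusted and 0.857 adjusted, and the two-sided exact permutation p was 0.4. Without Ash1l het replicate 2 it was 0.49 on the log2 scale.

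The remaining enzymes were scarce. B3gnt5, a glycosphingolipid glycosyltransferase, ran from 0.782 to 1.16 CPM in Ash1l het and from 0.745 to 0.811 CPM in WT. Tgm1, a transglutaminase of the ischaemia-linked set, did not pass the filter but had 15, 18 and 3 counts in Ash1l het and 0, 1 and 1 counts in WT. The summed counts of 36 and 2 give a ratio of rates of 17.2 (exact 95% interval 4.43 to 147, counting error only). With no filter its edgeR p was 0.00121 unadjusted and 0.478 adjusted. Sphk1, a sphingosine kinase, had 13 counts in Ash1l het and 11 in WT.

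The interferon-inducible GTPases Gbp2 and Iigp1, which defend cells against intracellular pathogens, were highest in Ash1l het replicate 2. Gbp2 was at 6.80, 12.1 and 2.47 CPM in Ash1l het, against 5.71, 3.29 and 4.63 CPM in WT. On the log2 scale this is 0.65 (SE 0.54, edgeR p of 0.270 unadjusted and 0.902 adjusted), or 0.02 without Ash1l het replicate 2. Iigp1 was at 1.36, 7.17 and 1.48 CPM in Ash1l het, against 1.16, 1.73 and 3.71 CPM in WT. For both genes the groups overlapped, and both belong to families of similar genes that can share reads. Srgn, the core protein of a proteoglycan of blood and endothelial cell granules, was at 11.7, 9.84 and 4.45 CPM in Ash1l het, against 9.27, 2.33 and 2.03 CPM in WT. WT replicate 1 lay above Ash1l het replicate 3 for Srgn, and its log2 fold change of 0.97 (SE 0.68, edgeR p of 0.204 unadjusted and 0.897 adjusted) was 1.98 without WT replicate 1. Fbln5, an elastic fibre protein, had a log2 fold change of -0.01 (SE 0.25).

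Cebpd, an acute-phase transcription factor, had 47, 152 and 63 counts in Ash1l het and 41, 32 and 54 counts in WT, which gave 0.98 on the log2 scale (SE 0.48). Ash1l het replicate 2 stood apart and the other Ash1l het libraries were close to WT replicate 1 in CPM. Cebpd with Spidr, and Amigo2 with Pced1b, also overlap on opposite strands, so the same limit on strand holds for them as for Cp and Hps3. Clcf1, a cytokine of the interleukin-6 family, had 13, 29 and 27 counts in Ash1l het and 2, 22 and 23 counts in WT, and its groups overlapped. S100a6 and S100a10, calcium-binding family proteins, and Hspb1, a small heat shock protein, were each highest in Ash1l het replicate 2 and lowest in Ash1l het replicate 3, and their fold changes were 0.69 (SE 0.55) for S100a6, 0.29 (SE 0.25) for S100a10 and 0.10 (SE 0.34) for Hspb1 on the log2 scale.

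**Figure D3:**
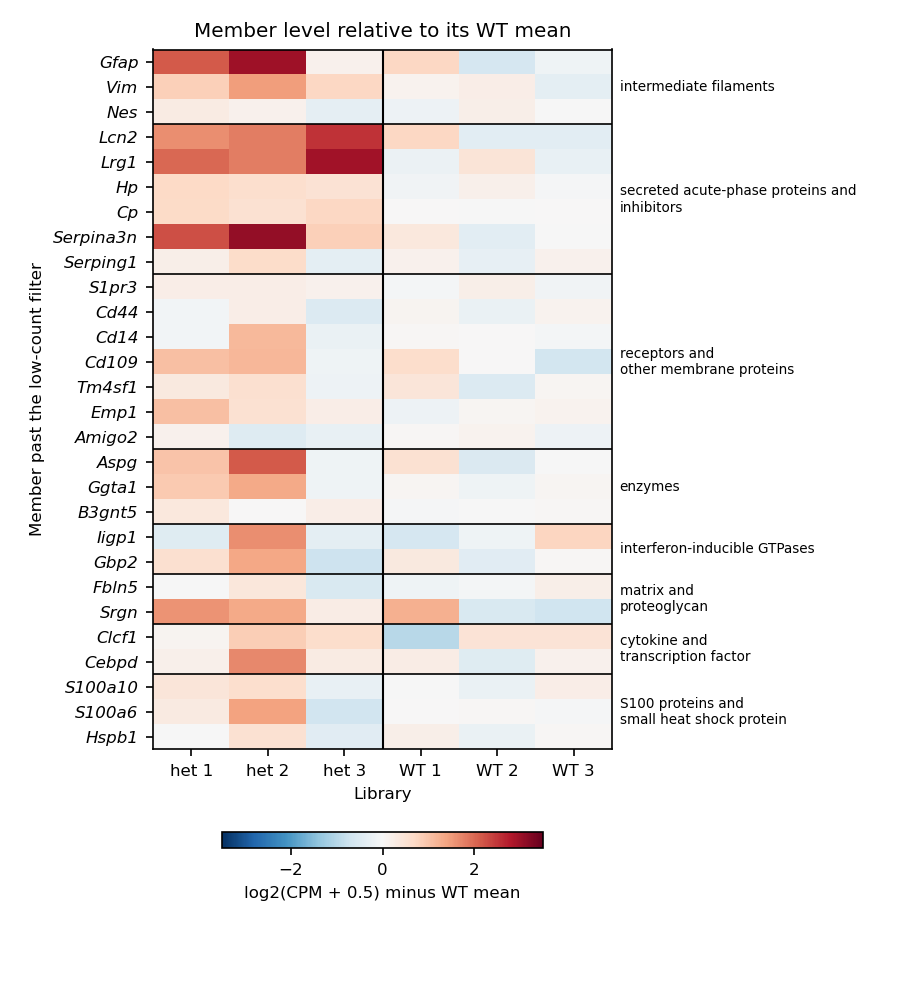
Colour shows log2(CPM + 0.5) of each of the 28 tested members (rows, by role) in each library (columns, Ash1l het left of WT) minus the mean of the 3 WT libraries. Ash1l het replicate 2 is the darkest column in most rows, and Lcn2 and Lrg1 are darkest in Ash1l het replicate 3.

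Across the 28 tested members the highest library was Ash1l het replicate 2 in 18, Ash1l het replicate 1 in 7, Ash1l het replicate 3 in 3 and a WT library in 0. Among all tested genes Ash1l het replicate 2 was highest in 24.1% and a WT library in 39.6%. Ash1l het replicate 3 was the lowest library in 10 of 28 members (14.2% of all tested genes) and lay above all 3 WT libraries in 10 of 28 (25.5% of all tested genes). Those 10 were the 7 members that followed genotype together with B3gnt5, Clcf1 and Cebpd. Of the other 18, 16 had Ash1l het replicate 3 below WT replicate 1. The counts thus turned most on Ash1l het replicate 3. Without it, every remaining Ash1l het library lay above WT in 18 of 29 tested members (14.0% of all tested genes), Gfap among them. Leaving out Ash1l het replicate 2 gave 8 of 28 (12.2%). Leaving out WT replicate 1 gave 11 of 29 (11.1%), Gfap again among them.

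By published class, 4 of the 9 tested pan-reactive genes, 0 of the 7 tested endotoxin-linked genes and 1 of the 7 tested ischaemia-linked genes followed genotype. Over all tested genes 6.18% did so, and with 7 genes in a class counts of 0 and 1 are near that share. Of the 4 pan-reactive genes, Lcn2 would not have passed the low-count filter on WT alone. Matches to the Gfap order were 2 of 8, 3 of 7 and 2 of 7, with Gfap itself left out of the first, against 5.23% of all tested genes. The difference between classes was not tested.

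**Figure D4:**
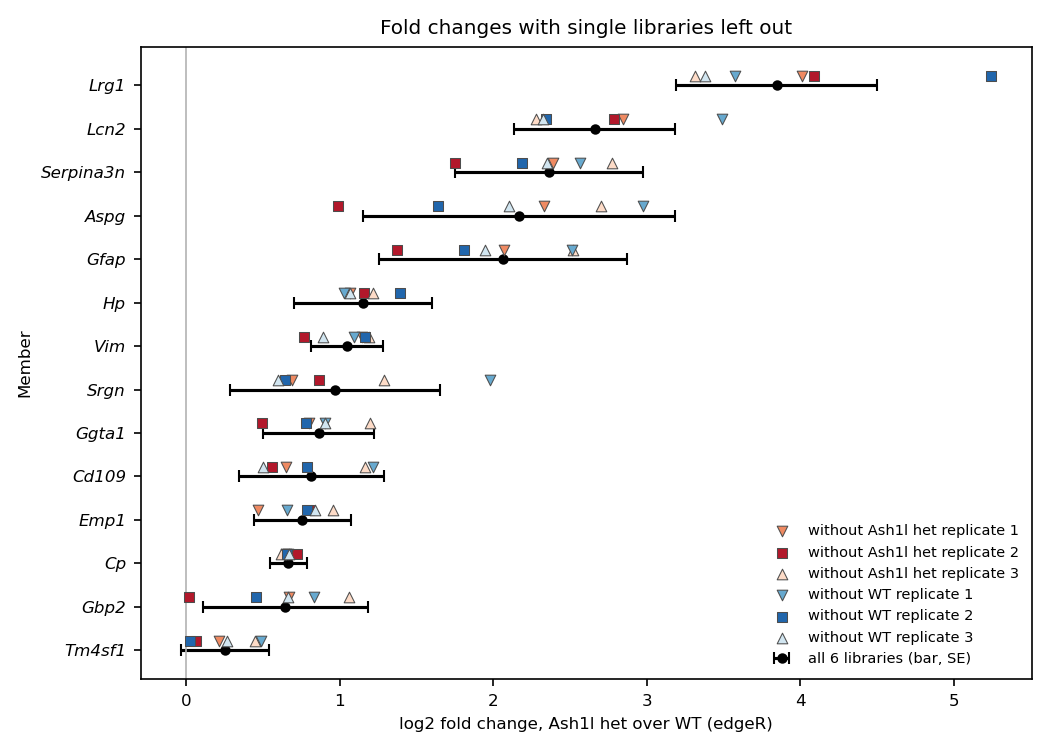
Log2 fold changes of Ash1l het over WT by edgeR for Gfap and the 13 members that followed genotype or the Gfap order, with all 6 libraries (black, bar ± SE) and with each library left out (coloured). Without Ash1l het replicate 2 the values for Aspg, Gfap, Serpina3n, Ggta1, Gbp2 and Vim are the lowest of their rows, while Cp stays between 0.62 and 0.72.

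Other genes of the reactive classes were also higher in Ash1l het by value, upstream signalling genes were mixed, and 0 of either list passed the edgeR test over all genes. Over all tested genes, 51.4% were higher and 6.18% were higher without overlap, shares that serve for both lists. Of 9 further class genes, 9 were higher and 4 did not overlap (median log2 fold change 0.53). The smallest unadjusted p-values in this list were those of Ptgs2 at 1.57 (SE 0.25), Osmr at 1.32 (SE 0.24) and H2-T23 at 0.53 (SE 0.17). Osmr, the oncostatin M receptor, was at 23.9, 19.0 and 12.6 CPM in Ash1l het, against 8.61, 7.35 and 6.25 CPM in WT. The list of upstream signals held 20 genes, of which 15 were tested, 12 were higher and 6 did not overlap (median 0.28). It includes 3 complement C1q genes, which microglia make, all 3 higher by value and 1 without overlap. Of the 17 cytokine, receptor and JAK-STAT3 genes, 12 were tested, 9 were higher, 3 were lower and 5 did not overlap (median 0.27). The smallest unadjusted p-values were those of Il1r1 at 0.91 (SE 0.20), Socs3, a feedback inhibitor induced by STAT3, at 1.91 (SE 0.49) and Tnfrsf1a at 0.42 (SE 0.18). The interleukin-6 receptor genes Il6st and Il6ra, counted as higher, were at 0.01 (SE 0.14) and 0.00042 (SE 0.18), and Jak1 was at -0.05 (SE 0.10). Il6 had 0 counts in every library, and Lif, Osm, Il1b and Tnf were under the filter. Socs3 was at 2.86, 3.45 and 1.32 CPM in Ash1l het, against 0.497, 1.08 and 0.405 CPM in WT.

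General astrocyte markers did not follow either pattern. Of 14, 4 were higher and 10 lower by value, and the median log2 fold change was -0.04. Groups without overlap were found in 0 of 14, against 6.18% of all tested genes higher and 5.53% lower. At least 13 pairs in the Gfap order were found in 0 of 14, against 5.23% of all tested genes. Summed, they stood at 7094, 6490 and 5869 CPM in Ash1l het, against 7254, 6419 and 6259 CPM in WT, so that the groups overlapped.

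Markers of some other cells shared the 2 patterns in part. Over all tested genes, 51.4% were higher, 6.18% were higher without overlap, and 25.5% had Ash1l het replicate 3 above all WT libraries. At least 13 pairs were in the Gfap order in 5.23%, and all 15 in 0.341%. Blood cell markers, 5 genes with no overlap in any of them, summed to 123, 110 and 56.1 CPM in Ash1l het, against 25.1, 35.4 and 22.99 CPM in WT, and 4 of the 5 had at least 13 pairs in the Gfap order. Reactive microglia markers were higher by value for 13 of 14 (median 0.62), and 1 of 14 had no overlap. At least 13 pairs were in the Gfap order in 5 of 14, of which Lyz2 and Itgax matched all 15. The 14 summed to between 1220 and 2385 CPM in Ash1l het and between 1069 and 1544 CPM in WT, so that the groups overlapped. Endothelial and mural markers were higher for 12 of 14 (median 0.24), with Ash1l het replicate 3 above all WT libraries in 12, and summed to 524, 471 and 590 CPM in Ash1l het, against 393, 479 and 427 CPM in WT. These sums overlapped between groups, 3 of the 14 genes had no overlap, and 0 of 14 had at least 13 pairs in the Gfap order. The sum of these markers was highest in Ash1l het replicate 3, as were Lcn2, Lrg1 and Cp. Oligodendrocyte markers (median 0.10) were higher by value for 7 of 8, and 0 of 8 were without overlap. In the Gfap order were 2 of 8, Mobp with 15 pairs and Mog with 13. The sum of all 8 was 7410, 8466 and 5734 CPM in Ash1l het, against 7022, 5615 and 6218 CPM in WT. This sum overlapped between groups and had 14 of 15 pairs in the Gfap order.

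Neutrophil and monocyte markers mark blood cells, some of them rich in Lcn2 and Lrg1. They were low, at 1.56, 3.06 and 2.64 CPM summed over 8 genes in Ash1l het, against 1.99, 0.239 and 0.695 CPM in WT. Of the 8, 0 passed the filter and 1, Ly6g, had 0 counts in all libraries. The sums overlapped, and WT replicate 1 held 1.49 CPM of Ly6c2. Singly, the neutrophil granule gene Ngp was at 0.272, 0.391 and 1.15 CPM in Ash1l het, against 0, 0 and 0.0579 CPM in WT, without overlap. S100a8 was at 0.476, 0.391 and 0.330 CPM in Ash1l het, against 0.166, 0.0598 and 0 CPM in WT, without overlap. S100a9 was at 0.136, 0.652 and 1.10 CPM in Ash1l het, against 0, 0.179 and 0.232 CPM in WT. Ngp and S100a9 were highest in Ash1l het replicate 3, as Lcn2 and Lrg1 were, on 32 and 39 counts in all libraries together. Other genes of the list, which spans neutrophils and monocytes, differed. In that library Ccr2, Ly6c2 and Plac8 were at 0 CPM, and S100a8 was at its lowest among the Ash1l het libraries. Camp had 1 count in all, in Ash1l het replicate 3. Homeostatic microglia (median -0.05), meningeal fibroblast (-0.09), ependymal and choroid plexus (0.08) and striatal neuron (-0.15) markers had small median log2 fold changes. Summed levels overlapped between groups in each of these 4 lists. The part of blood, neutrophil, microglial, endothelial and oligodendrocyte RNA in the members' differences was not tested.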

How the data were processed

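RNA from 6 dorsal striatum samples (3 Ash1l het, 3 WT) was sequenced from stranded mRNA libraries, per the labels' protocols. Tools named in the submitters' processing notes are edgeR, StringTie, HISAT2, FastQC and CASAVA, with the build GRCm38, and no source used here states their role, version or settings. The deposited table holds raw counts per gene and the authors' FPKM values, which are scaled to gene length and library size. Totals of 12080663 to 18798694 counts set the counting error of low genes. No molecular identifiers are described, so intervals cover counting error only.

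In R 4.3.3, edgeR 4.0.16 filtered genes by its default rule (minimum count 10), scaled libraries by TMM and ran the robust quasi-likelihood test, with genotype as the only term in the model. SE is the log2 fold change divided by the square root of F. P-values were adjusted by Benjamini-Hochberg over all 15267 tested genes, with a threshold of 0.05. Exact permutation tests used log2(CPM + 0.5). The steps were tested on simulated counts. The members, lists and rules were chosen with earlier results of these data known. Full values are given for Gfap and for members that did not overlap between groups, had at least 13 pairs in the Gfap order or had an unadjusted p under 0.05. For members with several promoter windows, the window nearest the deposited gene start was used, and for the share over all promoters the first listed.

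Alternatives were DESeq2 1.42.0, limma-voom (limma 3.58.1), RLE scaling and library totals alone, no filter and a filter of 1 CPM in 3 libraries, limma on log2 FPKM with 0.1 or 1 added, where mean FPKM reached 0.5 (with 0.1 also without that minimum), a replicate block, a threshold of 0.10, and each library left out.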

Additional observations from a re-analysis of the deposited data

How the results depend on the processing

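Members passing over all genes were 0 under every alternative run except DESeq2, which passed 4 members and 35 genes in all. Without single libraries 0 members passed, and the genes passing in all were 1 when WT replicate 3 was left out and up to 13 when Ash1l het replicate 3 was, against 2 with all libraries. The count of members with every Ash1l het library above WT ran from 8 to 18 with a library left out and was 4 on log2(FPKM + 0.1) and on log2(FPKM + 1), where 21 members passed the FPKM minimum. Members in the Gfap order ran from 3 (without Ash1l het replicate 2) to 10 (without Ash1l het replicate 3). The median log2 fold change ran from 0.27 to 0.96 with a library left out. Over the 21 members past the FPKM minimum it was 0.40 on log2(FPKM + 0.1) and 0.28 on log2(FPKM + 1), a scale that understates low genes. The cause of these shifts was not tested. None of the 14 members followed one by one changed sign under any alternative run. A replicate block gave 0 members, 3 genes and a median of 0.55. Same-numbered libraries had correlations of deviations of 0.056, -0.075 and 0.011 over 15267 genes, so the numbers were not taken as pairs, and not every library correlated best with its own number. Depth limits Hp, Aspg, WT values of Lrg1 and Lcn2, and the 6 members under the filter, which had few counts.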
